A study of Bos taurus with 29 samples.

Results

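The genes described here are the VEGF ligands VEGFA, VEGFB, VEGFC and PGF (placental growth factor), the receptors FLT1, KDR and FLT4, and the co-receptors NRP1 and NRP2. They were taken by symbol from a count table of bovine corpus luteum, and 9 of 9 were present among its 19112 genes. All 9 also passed the filter on low counts that left 18939 genes for testing. The corpus luteum is the progesterone-secreting gland that forms in the ovary after ovulation. The study addressed signalling between embryo, endometrium and corpus luteum. Polyadenylated RNA of corpus luteum from a slaughterhouse source was sequenced in 4 groups of 3 libraries, each group holding the numbers R2, R4 and R5.

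NC is taken here as the control; its sample titles read DMEN. CM_EE, CM_EE_AI and CM_EE_IVF are read as corpus luteum given medium conditioned by endometrial explants; the labels leave this unstated. The explants behind CM_EE are read as having no embryo. Those behind CM_EE_AI are read as having 1 in vivo embryo, and those behind CM_EE_IVF as having 1 in vitro embryo. The embryo day, 7, is given for the explant samples of the study and not for these corpus luteum samples. The labels name no breed, cycle stage, culture time or number of cows. Nor do they say what R2, R4 and R5 mark or whether the libraries come from separate animals, so p-values measure the spread between these libraries, which may be technical. In each group R4 and R5 have 2 sample titles but 1 column of counts, whereas R2 has 1 title of another form, and what this difference in titles marks is not stated.

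VEGF ligands drive the growth, survival and permeability of vessels. VEGFA, VEGFB and PGF bind FLT1 (VEGF receptor 1), VEGFA signals in blood endothelium mainly through KDR (VEGF receptor 2), and VEGFC signals through FLT4 (VEGF receptor 3), best known from lymphatic endothelium. NRP1 and NRP2 bind both VEGF forms and class 3 semaphorins. The corpus luteum builds a dense capillary bed within days of ovulation, and VEGFA is its best known angiogenic factor. Counts per gene separate neither the splice forms of VEGFA nor membrane-bound from soluble FLT1.

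Library totals ran from 16536797 to 25747637 counts. Mitochondrially encoded genes took 49.5% to 55.9% of the counts in R2, 44.4% to 48.9% in R4 and 54.8% to 64.0% in R5. Levels below are CPM, counts scaled to a common library total, after TMM normalisation, and since gene lengths were not used, levels are compared between libraries and not between genes. All 8 luteal steroidogenic markers were tested, and their summed level ran from 1436 to 6486 CPM over the 12 libraries. STAR, which carries cholesterol into mitochondria, CYP11A1, which makes pregnenolone from it, and HSD3B1, which makes progesterone, averaged 294, 405 and 913 CPM. In tissue RNA, fewer cells of a type and less RNA per cell cannot be told apart.

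Among the ligands, VEGFA and VEGFC were low in R5 in every group. None of the 4 ligands differed between groups at an adjusted p under 0.05 in edgeR. VEGFA, the main vascular ligand, stood at 94.3, 131, 102 and 109 CPM in R2 for NC, CM_EE, CM_EE_AI and CM_EE_IVF, at 93.8, 141, 200.1 and 119 CPM in R4, and at 49.0, 35.1, 47.5 and 56.3 CPM in R5. Each R5 library lay below each R2 and R4 library, and the single highest value was that of CM_EE_AI in R4. Group means followed the order NC (79.1 ± 26.0 CPM, SD, n = 3), CM_EE_IVF (94.9 ± 33.7), CM_EE (102 ± 58.4) and CM_EE_AI (116 ± 77.4), and every pair of groups overlapped.

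VEGFC, the ligand of FLT4, stood at 62.1, 91.4, 61.9 and 49.7 CPM in R2, at 51.8, 60.2, 45.3 and 46.0 CPM in R4, and at 20.8, 25.0, 20.8 and 24.1 CPM in R5, in the same order of groups. Here too all 4 R5 libraries were the lowest of the 12. Within each number the CM_EE library was the highest of its 4, a pattern picked out after the values were seen. Group means were 39.9 ± 13.9 CPM (SD, n = 3) in CM_EE_IVF, 42.7 ± 20.7 in CM_EE_AI, 44.9 ± 21.5 in NC and 58.8 ± 33.2 in CM_EE, with overlap between all groups.

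The other ligands were read at few counts. PGF, which binds FLT1 but not KDR, had 12 to 89 counts a library. Its level was 2.41, 4.43, 2.87 and 2.80 CPM in R2, 3.73, 2.64, 1.53 and 0.969 CPM in R4, and 1.10, 0.527, 1.48 and 1.28 CPM in R5. The R5 values lay below all R2 values but overlapped those of R4. VEGFB, with 37 to 67 counts a library, was the most even ligand: it ran from 1.97 to 3.10 CPM, and neither the groups nor the numbers separated.

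Among the receptors, FLT1 set R2 apart. FLT1, which binds VEGFA, VEGFB and PGF and as a soluble form holds VEGFA away from KDR, stood at 1892, 2628, 1937 and 1756 CPM in R2, at 458, 571, 486 and 331 CPM in R4, and at 466, 322, 363 and 322 CPM in R5, in the order NC, CM_EE, CM_EE_AI and CM_EE_IVF. The lowest R2 library was above the highest of the other 8 libraries, while R4 and R5 overlapped. FLT1 averaged 2053 ± 391 CPM (SD, n = 4) in R2, 461 ± 99.2 in R4 and 368 ± 68.0 in R5.

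KDR, the main signalling receptor for VEGFA, moved far less. It stood at 479.7, 519, 463 and 495 CPM in R2, at 446, 471, 369.6 and 309 CPM in R4, and at 483, 318, 366 and 353 CPM in R5. The 3 NC libraries spanned only 446 to 483 CPM, and all groups and numbers overlapped. The ratio of FLT1 to KDR counts separated the numbers as FLT1 did, with 3.55 to 5.06 in R2, 1.03 to 1.31 in R4 and 0.912 to 1.01 in R5; R4 and R5 did not overlap in this ratio.

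FLT4, the receptor for VEGFC, was lowest in R4, at 16.01, 15.0, 14.6 and 16.2 CPM. The same groups gave 31.5, 32.8, 41.5 and 46.1 CPM in R2 and 32.2, 49.7, 31.4 and 33.7 CPM in R5. The ligand and its receptor thus had their low values in different numbers, VEGFC in R5 and FLT4 in R4. The ratio of VEGFC to FLT4 counts ran from 2.84 to 4.01 in R4, from 1.08 to 2.79 in R2 and from 0.502 to 0.714 in R5, with no overlap between the numbers.

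The co-receptors also went different ways. NRP1, which strengthens VEGFA binding to KDR, stood at 292, 314, 282 and 336 CPM in R2, at 374, 355, 333 and 279 CPM in R4, and at 224, 157, 183 and 181 CPM in R5, the 4 lowest values. NRP2, a partner of FLT4, stood at 71.2, 94.5, 77.3 and 81.9 CPM in R2, at 40.6, 47.6, 43.9 and 61.6 CPM in R4, and at 68.2, 63.2, 72.8 and 69.3 CPM in R5. NRP2 was thus lowest in R4, as FLT4 was. In the NRP1 locus the reference annotation holds an overlapping gene, LOC112449261, which averaged 0.672 CPM in the table. Whether counting used strand is not stated for these libraries.

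**Figure D1:**
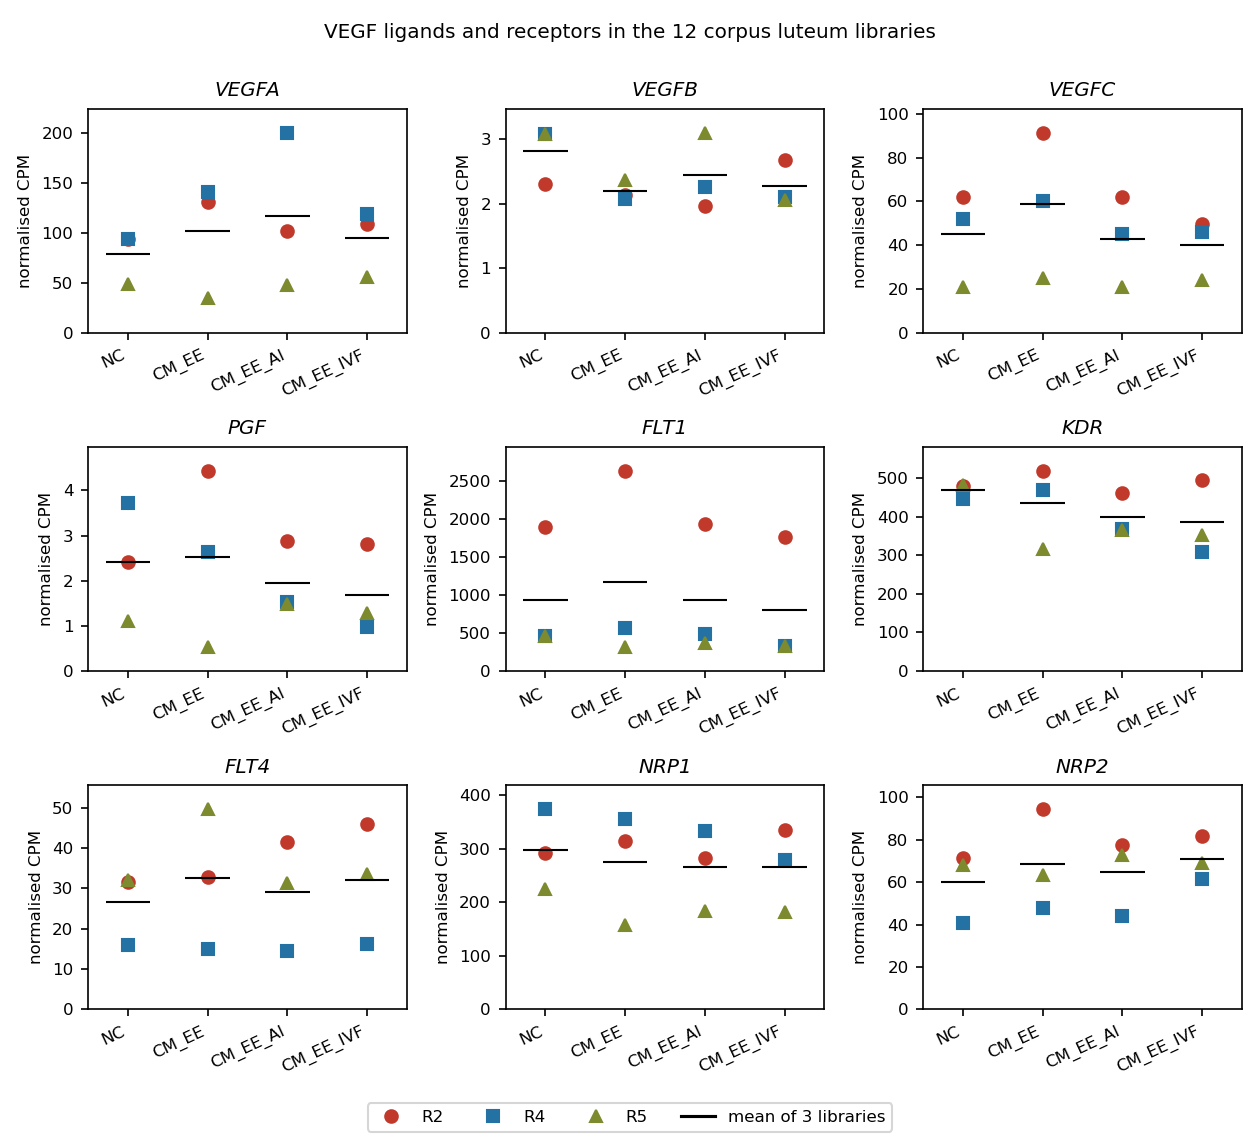
Normalised CPM (y axis, linear, from 0) of the 9 VEGF genes in each of the 12 libraries, by group (x axis); circles are R2, squares R4, triangles R5 and bars the mean of 3 libraries. The R2 circles of FLT1 lie between 1756 and 2628 CPM, above all others, the R5 triangles of VEGFA, VEGFC and NRP1 are lowest, and the R4 squares of FLT4 and NRP2 are lowest.

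The first question was whether conditioned medium, with or without an embryo, went with a change in these genes. None of the 9 passed the threshold in any of the 6 comparisons between groups, in the mean of the 3 conditioned-medium groups against NC, in the mean of both embryo groups against CM_EE, or in the test among all 4 groups. The threshold was an adjusted p of 0.05, from edgeR's quasi-likelihood test with Benjamini-Hochberg adjustment over all genes. The background was the same: edgeR called 0% of the 18939 genes in each of these tests. At an unadjusted p under 0.05, edgeR listed 127 to 318 genes per contrast and 172 in the test among groups, with 0 of the 9 VEGF genes among them. This edgeR model has no term for the number, so the spread between numbers also entered these p-values. For genes that vary mostly with the number, the 0 of 9 therefore cannot show whether the medium had an effect. With such a term, edgeR gave VEGFC (lowest unadjusted p = 0.0153, adjusted p = 0.710) and FLT1 (0.0465, adjusted p = 0.961) values under 0.05 against CM_EE. None of the 9 passed after adjustment there either. DESeq2, run as a second tool, called 0 genes in the 6 pairs and in the mean contrast against NC, and 1 gene, not one of the 9, in each of the other 2 tests.

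For the medium of explants without an embryo against NC, log2 fold changes of the 9 genes had a median of 0.19, beside -0.03 over all genes tested. VEGFC was at 0.39 (95% interval -0.78 to 1.56) and VEGFA at 0.37 (-0.87 to 1.61), the highest of the 9. VEGFB was the lowest at -0.36 (-1.14 to 0.41). Within the numbers R2, R4 and R5, VEGFC differed by 0.56, 0.21 and 0.26 on the log2 scale and VEGFB by -0.11, -0.56 and -0.37. VEGFA had a mixed sign, with 0.47 and 0.59 in R2 and R4 and -0.48 in R5.

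For the medium of explants with an in vivo embryo against NC, VEGFA had the highest log2 fold change, 0.56 (95% interval -0.68 to 1.80). The R4 libraries carried this value: the difference was 0.11 in R2, 1.09 in R4 and -0.05 in R5. With the CM_EE_AI library of R4 left out, the log2 fold change of VEGFA was -0.08. KDR was at -0.23 (-0.86 to 0.39), with -0.05, -0.27 and -0.40 within the numbers. The median of the 9 was -0.07, beside 0.03 over all genes.

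With an in vitro embryo, PGF had the lowest log2 fold change against NC, -0.52 (95% interval -2.05 to 1.02). Its sign was mixed, with 0.22 in R2 and in R5 and -1.89 in R4. KDR was at -0.28 (-0.91 to 0.34) and FLT1 at -0.22 (-2.28 to 1.83). FLT1 differed from NC by -0.11, -0.47 and -0.53 in R2, R4 and R5. The median of the 9 was -0.17, beside -0.04 over all genes. These 3 comparisons share the NC libraries, so their values are not independent of each other.

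Against the medium of explants alone, VEGFC was measured lower in the embryo groups within every number, but not past the threshold. With the in vivo embryo the log2 fold change was -0.46 (95% interval -1.63 to 0.70), and the values within R2, R4 and R5 were -0.56, -0.41 and -0.26. With the in vitro embryo it was -0.56 (-1.73 to 0.61), with -0.88, -0.39 and -0.05 within the numbers. Both comparisons use the same CM_EE libraries. In this model without a term for the number, VEGFC also had the lowest unadjusted p of the 9 genes in any group comparison. It was 0.285 for the mean of both embryo groups (log2 fold change -0.51, edgeR, adjusted p = 0.9999). With such a term edgeR gave VEGFC an unadjusted p of 0.0153 there (adjusted p = 0.710). FLT1 gave -0.34 and -0.55 in the same comparisons, with intervals reaching from -2.60 to 1.71.

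Between the embryo types, in vitro against in vivo, the 9 genes ran from -0.30 (VEGFA) to 0.13 (FLT4), with a median of -0.09 beside -0.07 over all genes. FLT4 differed by 0.15, 0.16 and 0.10 within R2, R4 and R5, against an interval of -0.98 to 1.25 for the pooled difference. PGF differed by -0.03, -0.63 and -0.20 within the numbers, against an interval of -1.76 to 1.32.

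Over the 6 pairs of groups, half-widths of the 95% intervals ran from 0.63 to 2.06 on the log2 scale, narrowest for KDR and widest for FLT1 in this model, which has no term for the number. In 0 of the 6 pairs did any of the 9 genes have groups that did not overlap. Each group holds a library of R2, of R4 and of R5. Groups therefore tend to overlap in genes that vary mostly with the number, such as FLT1. For those genes the overlap cannot show whether the medium had an effect. The share of all genes without overlap was 2.69% for CM_EE against NC, 3.93% for CM_EE_AI against NC, 5.73% for CM_EE_IVF against NC, 3.34% for CM_EE_AI against CM_EE, 5.60% for CM_EE_IVF against CM_EE and 2.32% between the embryo groups. The same sign within all 3 numbers was found for 2, 4, 4, 1, 1 and 3 of the 9 genes in these pairs, in that order. Over all genes that share was 16%, 25.6%, 24.7%, 21.9%, 31.3% and 15.5%.

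**Figure D2:**
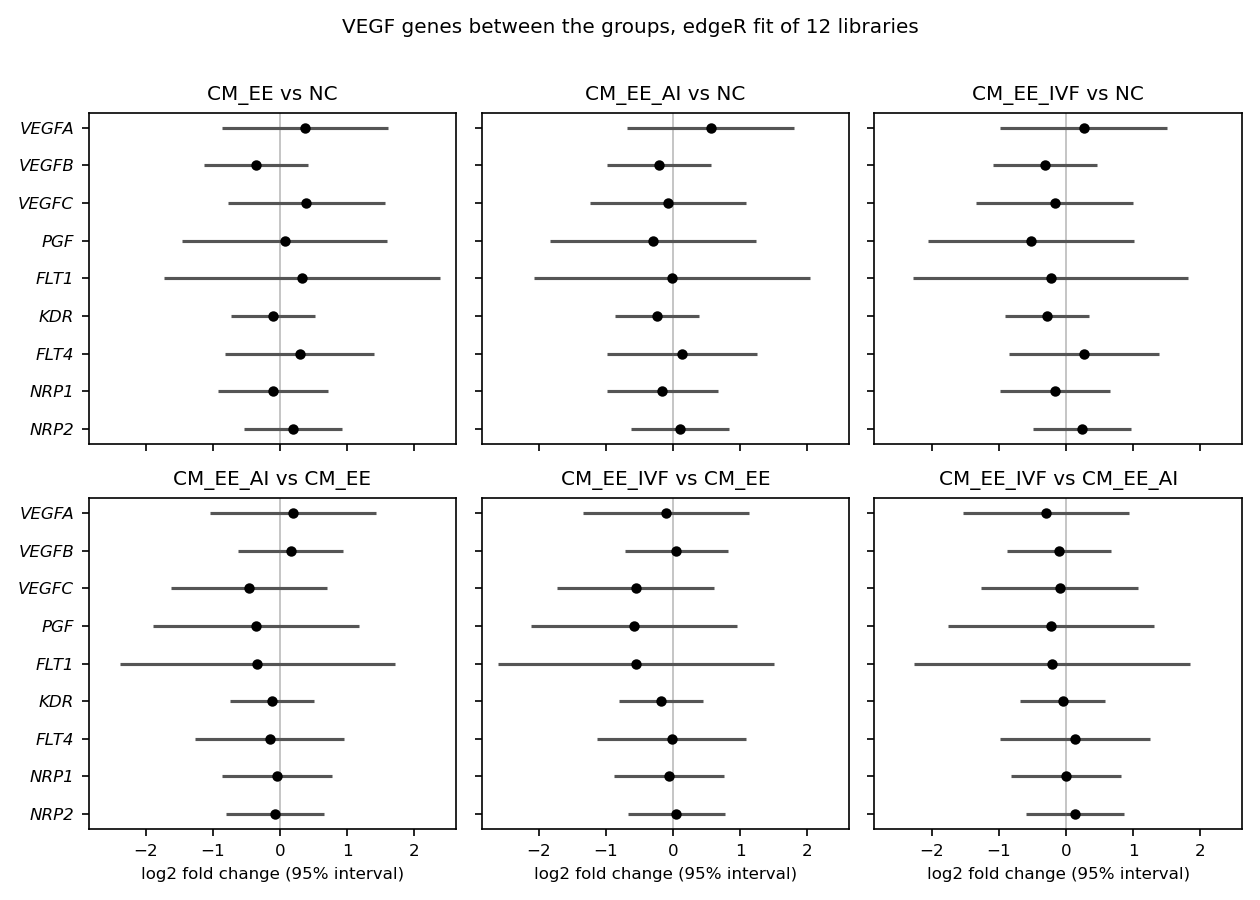
Log2 fold change (x axis) of each VEGF gene (y axis) in the 6 comparisons between groups, with points for the edgeR estimate from all 12 libraries and lines for its 95% interval. Every interval includes 0, estimates lie between -0.58 and 0.56, and FLT1 has the widest lines.

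The numbers R2, R4 and R5 carried more of the variation than the groups did for 8 of the 9 genes, VEGFB being the exception. In a model with group and number, edgeR called 6 of the 9 VEGF genes across the numbers, against 26.7% of all genes tested. The adjusted p was 6.03e-06 for FLT1, 1.11e-04 for VEGFC, 6.99e-04 for FLT4, 1.09e-03 for VEGFA, 4.47e-03 for NRP1 and 9.38e-03 for NRP2. PGF (adjusted p = 0.0926), KDR (0.203) and VEGFB (0.840) did not pass. Since the 4 libraries that share a number may share a source, these p-values compare these libraries and do not speak for other corpora lutea.

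The number carried 95.3% of the sum of squares of log2 CPM over the 12 libraries for FLT1, 89.9% for VEGFC, 89.0% for FLT4, 86.0% for NRP1, 83.9% for VEGFA and 79.2% for NRP2. The median over all genes tested was 40.1%. PGF stood at 56.0%, KDR at 42.6% and VEGFB at 14.1%. The group carried 1.95% (FLT4) to 33.0% (VEGFB), beside a median of 13.7% over all genes.

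**Figure D3:**
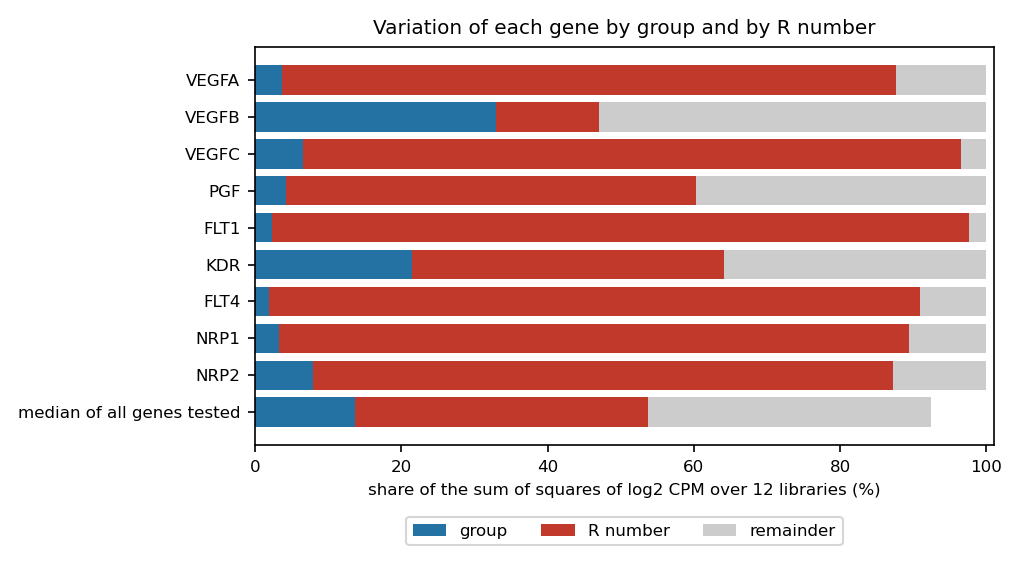
Share of the sum of squares of log2 CPM (x axis, percent) that goes with group, with the number R2, R4 or R5, and with neither, for each VEGF gene; the lowest bar gives the median of each share over all genes tested, so its parts do not add to 100%. The number takes from 79.2% to 95.3% for VEGFA, VEGFC, FLT1, FLT4, NRP1 and NRP2, and less for VEGFB, PGF and KDR.

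Between R2 and R4 the calls were 2 receptors and a co-receptor, and no ligand passed. Of the 9 genes 3 were called higher in R2, against 13.6% of all genes called in either direction (4.93% higher, 8.72% lower). FLT1 was higher by 2.16 on the log2 scale (95% interval 1.75 to 2.58, adjusted p = 3.66e-05), which is 4.48-fold. FLT4 was higher by 1.29 (0.88 to 1.70, adjusted p = 8.88e-04) and NRP2 by 0.76 (0.42 to 1.09, adjusted p = 6.99e-03). VEGFA (-0.31, -0.79 to 0.16), VEGFC (0.36, 0.03 to 0.70) and NRP1 (-0.13, -0.47 to 0.22) did not pass after adjustment. The median of the 9 was 0.36, beside -0.04 over all genes tested.

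R2 against R5 differed in 5 of the 9 genes, all higher in R2, against 20.8% of all genes called (9.26% higher, 11.5% lower). FLT1 was higher by 2.47 on the log2 scale (95% interval 2.05 to 2.89, adjusted p = 1.31e-05), or 5.53-fold. The ligands VEGFC (1.52, 1.18 to 1.86, adjusted p = 5.49e-05) and VEGFA (1.21, 0.73 to 1.69, adjusted p = 2.35e-03) and the co-receptor NRP1 (0.73, 0.38 to 1.08, adjusted p = 7.02e-03) were higher as well. PGF passed narrowly at 1.48 (0.42 to 2.54, adjusted p = 0.0488); with 1 library left out it passed in 4 of 12 fits, with adjusted p from 0.0249 to 0.130. It was lost on leaving out any R5 library or any R2 library other than NC, or the CM_EE library of R4. KDR, at 0.38 (0.00 to 0.75, adjusted p = 0.149), passed when the NC library of R2 or of R5 was left out, with the lowest adjusted p at 0.0276. The median of the 9 was 0.73, beside -0.08 over all genes.

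R4 against R5 held differences in both directions, in 5 of the 9 genes (3 higher, 2 lower in R4) against 14.2% of all genes (8.67% higher, 5.58% lower). VEGFA was higher in R4 by 1.52 on the log2 scale (95% interval 1.03 to 2.01, adjusted p = 1.28e-03), VEGFC by 1.15 (0.81 to 1.50, adjusted p = 7.95e-04) and NRP1 by 0.85 (0.50 to 1.20, adjusted p = 4.94e-03). FLT4 was lower in R4, at -1.24 (-1.65 to -0.83, adjusted p = 1.54e-03). NRP2 was lower at -0.51 (-0.85 to -0.18, adjusted p = 0.0451); with 1 library left out it passed in 2 of 12 fits, with values from -0.63 to -0.40 and adjusted p up to 0.172. The fits that kept NRP2 were those without the CM_EE library of R2 or the CM_EE_IVF library of R4. FLT1 did not differ past the threshold between R4 and R5 (0.30, -0.10 to 0.70, adjusted p = 0.309). The median of the 9 was 0.30, beside -0.08 over all genes. The 3 comparisons of numbers share libraries with one another.

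R5, where VEGFA, VEGFC and NRP1 were lowest, reached the highest mitochondrial share (64.0%, with some overlap with R2), and R4, where FLT4 and NRP2 were lowest, had the lowest shares. The part of this share in the differences was not tested.

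**Figure D4:**
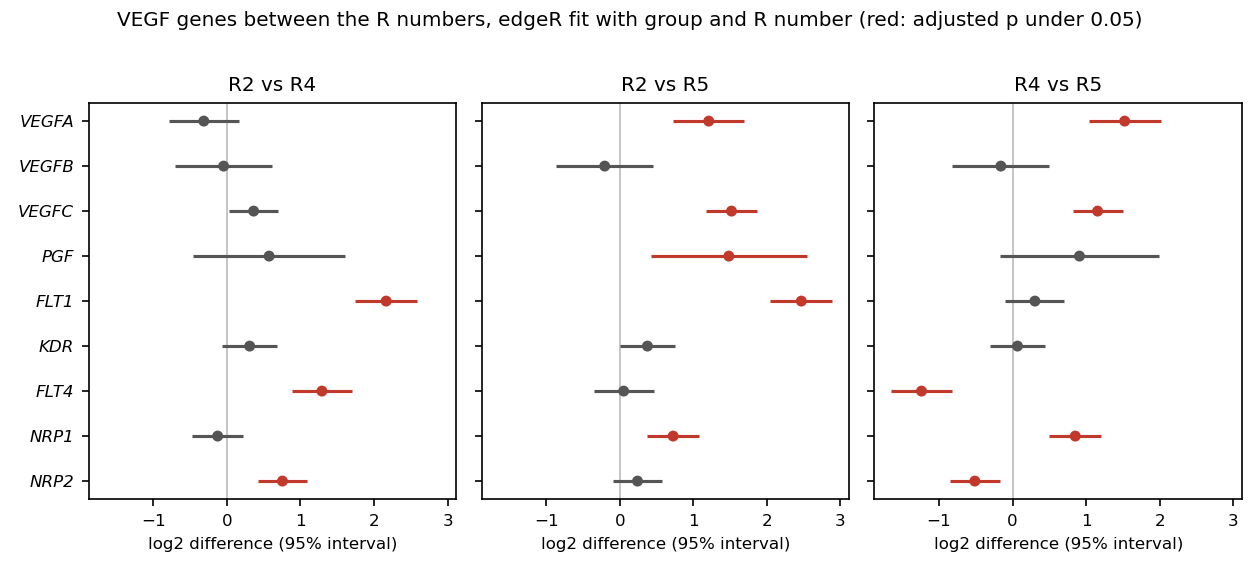
Log2 difference (x axis) of each VEGF gene (y axis) between the numbers R2, R4 and R5, from the edgeR fit with group and number; lines are 95% intervals and red marks an adjusted p under 0.05. FLT1 is higher in R2 by 2.16 and 2.47, while VEGFA, VEGFC and NRP1 are higher and FLT4 and NRP2 lower in R4 than in R5.

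By overlap, FLT1 was the only one of the 9 whose 4 R2 libraries lay apart from the other 8, beside 9.80% of all genes. FLT4 and NRP2 lay apart in R4 (5.63% of all genes), and VEGFA, VEGFC and NRP1 in R5 (11.7%). KDR, VEGFB and PGF had no number apart. FLT1 held rank 38 by p across the numbers among all genes tested. Of 15002 genes at a mean of at least 1 CPM, 50 were higher in R2 than FLT1 was by both log2 differences.

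Genes whose log2 CPM followed each VEGF gene most closely over the 12 libraries were listed by Pearson's r among 12673 named genes, as a description. For FLT1 they were UBTD1 (r = 0.992), CDH5 (0.991), the cadherin of endothelial junctions, and DLL4 (0.986), the Notch ligand of sprouting vessels. For FLT4 they were MMRN1 (0.935), CCL21 (0.935), a chemokine made by lymphatic endothelium, and CDC25B (0.929). VEGFA was followed by BIRC3 (0.985), SLC2A1 (0.984), a glucose transporter, and KLF10 (0.982). VEGFC was followed by PKIG (0.981), LRRC8C (0.981) and ANTXR2 (0.979). For NRP1 the genes were FNIP1 (0.977), ITGAV (0.976) and STAT3 (0.976), and for NRP2 they were ARGLU1 (0.924), NCAPD2 (0.917) and MACF1 (0.916). The closest r was 0.957 for PGF (SF3B3), 0.932 for KDR (PLCB1) and 0.868 for VEGFB (MLLT10). Libraries of 1 number are not independent points in these correlations.

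Genes that respond to VEGF in endothelium, were a list of 12 that also holds PGF, of which 11 were tested; ANGPT2 was not analysed here. Of the 11, 8 were called by edgeR across the numbers, beside 26.7% of all genes, 5 highest in R2 and 3 in R4, and 0 across the groups. Their median log2 difference was 0.58 for R2 against R4 and 2.05 for R2 against R5, beside -0.04 and -0.08 over all genes. DLL4 averaged 137 ± 31.1 CPM (SD, n = 4) in R2, 43.9 ± 12.2 in R4 and 32.8 ± 5.46 in R5. UNC5B, a netrin receptor of vessels, averaged 209.5 ± 72.6, 47.4 ± 17.3 and 41.6 ± 3.46 CPM. F3, the tissue factor that starts clotting, took another course, at 7.99 ± 1.41 CPM in R2, 42.7 ± 34.5 in R4 and 1.85 ± 0.752 in R5.

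Signalling genes downstream of the VEGF receptors split. Of 25 tested, 12 were called across the numbers, beside 26.7% of all genes, 7 highest in R2, 3 in R4 and 2 in R5, and 0 across the groups. The median log2 difference was 0.19 for R2 against R4 and 0.09 for R2 against R5, beside -0.04 and -0.08 over all genes. SHB, an adaptor of KDR, averaged 65.3 ± 8.99 CPM in R2, 25.9 ± 8.29 in R4 and 20.1 ± 1.39 in R5. NFATC2, a calcineurin-driven transcription factor, averaged 31.1 ± 9.63, 10.03 ± 1.47 and 12.4 ± 0.492 CPM. NOS3, the endothelial nitric oxide synthase, had the lowest p of the list across the groups (unadjusted p = 0.124 in edgeR, adjusted p = 1.000), with 28.2 ± 8.98 CPM (SD, n = 3) in NC, 31.7 ± 5.35 in CM_EE, 20.3 ± 4.85 in CM_EE_AI and 21.3 ± 1.90 in CM_EE_IVF.

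The class 3 semaphorins and their plexins, which share the neuropilins with VEGF, had 6 of 12 genes called across the numbers, beside 26.7% of all genes, and 0 across the groups. SEMA3A, the best known ligand of NRP1, averaged 55.4 ± 10.9 CPM in R2, 8.34 ± 2.08 in R4 and 17.02 ± 3.61 in R5. SEMA3C was highest in R4, at 77.5 ± 25.4 CPM, beside 11.3 ± 3.14 in R2 and 10.6 ± 1.53 in R5.

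Genes of oxygen sensing, upstream of VEGFA as background, had 4 of 9 called across the numbers, beside 26.7% of all genes. Of these 4, 3 were highest in R2 and 1 in R4. The median log2 difference of the 9 was -0.04 for R2 against R4 and 0.06 for R2 against R5, beside -0.04 and -0.08 over all genes. Between R2 and R4, 2 of the 9 were called higher and 1 lower in R2. HIF1A, the oxygen-regulated transcription factor, averaged 112 ± 21.5 CPM in R2, 77.5 ± 17.2 in R4 and 18.9 ± 4.27 in R5. EGLN3, a hydroxylase that marks HIF for breakdown and is itself induced by HIF, averaged 58.8 ± 13.7, 5.41 ± 1.79 and 2.41 ± 0.653 CPM. Of 15 hypoxia-induced genes 14 were called across the numbers, beside the same 26.7%, 11 highest in R2, 2 in R4 and 1 in R5. NDRG1 averaged 1026 ± 266 CPM in R2, 201 ± 57.6 in R4 and 71.0 ± 16.1 in R5, and LDHA, a lactate dehydrogenase, 276 ± 65.5, 59.0 ± 13.9 and 21.9 ± 5.15. The summed level of the 15 ran from 1902 to 2844 CPM in R2, from 698 to 1124 in R4 and from 312 to 443 in R5, and the median log2 difference was 0.83 for R2 against R4 and 2.13 for R2 against R5, beside -0.04 and -0.08 over all genes. Across the groups 0 of the 24 genes of both lists were called. VEGFA itself was not highest in R2, with means of 109 ± 15.7 CPM in R2, 139 ± 45.4 in R4 and 47.0 ± 8.79 in R5. The part of these lists in the VEGFA differences was not tested.

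Of 11 endothelial markers 9 were called across the numbers, beside 26.7% of all genes, 7 highest in R2 and 2 in R5. Their summed level was 1158 to 1597 CPM in R2, 595 to 962 in R4 and 705 to 928 in R5. The median log2 difference was 0.75 for R2 against R4 and 0.58 for R2 against R5, beside -0.04 and -0.08 over all genes. CLDN5, a tight junction protein, averaged 41.6 ± 11.2 CPM in R2, 4.07 ± 1.64 in R4 and 4.53 ± 0.679 in R5, and CDH5 284 ± 54.2, 90.0 ± 20.7 and 78.2 ± 9.23. Not all markers took this course: TEK, the angiopoietin receptor, had log2 differences of -0.53 for R2 against R4 and -1.01 for R2 against R5, and EMCN, an endothelial sialomucin, of -0.77 and -0.46. FLT1, itself an endothelial gene, was high in the same 4 libraries, while KDR, also endothelial, did not differ past the threshold. The part of the endothelial markers in the FLT1 difference was not tested.

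Lymphatic endothelial markers had their lowest summed level in R4, where FLT4 was lowest. Of 5 markers 4 were called across the numbers, beside 26.7% of all genes, 3 highest in R2 and 1 in R4, and the summed level was 167 to 227 CPM in R2, 75.6 to 124 in R4 and 138 to 153 in R5. CCL21 averaged 35.3 ± 10.3 CPM in R2, 5.36 ± 2.18 in R4 and 33.2 ± 2.25 in R5, and RELN, a secreted glycoprotein of lymphatic vessels, 59.2 ± 8.41, 10.8 ± 5.48 and 40.7 ± 5.40. PROX1, which sets lymphatic identity, was not called, at 69.6 ± 6.16, 46.8 ± 18.9 and 54.8 ± 7.11 CPM. CCL21 and RELN had the large differences between R4 and R5 in that direction, with log2 values of -2.71 and -1.97 for R4 against R5. PDPN, a mucin-like protein of lymphatic vessels, went the other way at 1.92, and LYVE1, a hyaluronan receptor, was at 0.11. The part of these markers in the FLT4 difference was not tested.

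**Figure D5:**
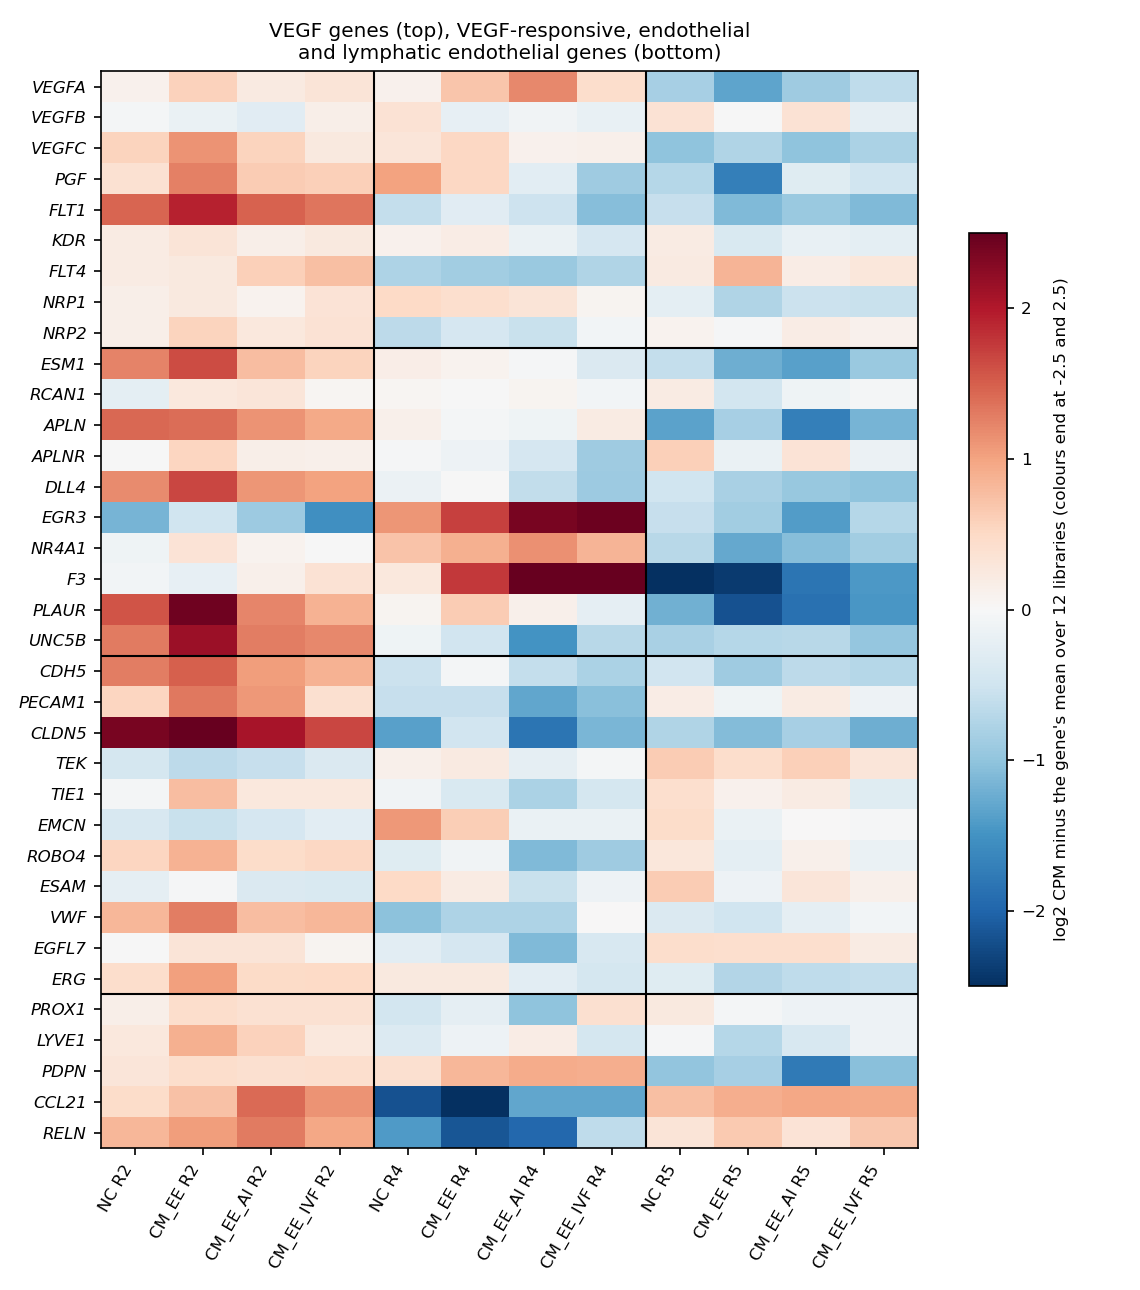
Log2 CPM of each gene (y axis) minus its mean over the 12 libraries (x axis, ordered by R2, R4 and R5). VEGF genes are on top, then genes that respond to VEGF, endothelial markers and lymphatic endothelial markers. Colours end at -2.5 and 2.5. FLT1, DLL4, UNC5B, CDH5 and CLDN5 are red in the 4 R2 columns, and FLT4, CCL21 and RELN are blue in the 4 R4 columns. Other rows go the other way: TEK, EMCN and ESAM are below their means in the 4 R2 columns. PDPN is above its mean in the 4 R4 columns.

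The lists for other cell types were uneven across the numbers, read against the 26.7% of all genes called. All 8 luteal steroidogenic markers were called, 6 highest in R4, with a summed level of 1501 to 2685 CPM in R2, 1728 to 6486 in R4 and 1436 to 2141 in R5. The NC libraries, R4 among them, spanned only 1581 to 1873 CPM, and the highest sum was that of CM_EE_AI in R4. Fibroblast markers had 5 of 6 called, all highest in R2. Pericyte and smooth muscle markers had 5 of 8 called, 2 highest in R2, 2 in R4 and 1 in R5. Of 6 granulosa and theca markers of the follicle 4 were tested and 2 called, both highest in R5, with a summed level of 33.9 to 45.8 CPM in R2, 23.2 to 44.7 in R4 and 57.6 to 120.4 in R5. Macrophage markers had 1 of 6 called and T cell markers 0 of 6. Both lists were read at low levels, with gene means of 0.961 to 6.09 CPM for macrophages and 0.346 to 1.51 CPM for T cells. For the T cell markers, 0 had an unadjusted p under 0.05 across the numbers in edgeR. Even so, 0 of the 6 had a log2 difference above 0 in R2 against R5 or in R4 against R5. The medians were -0.83 and -0.77, beside -0.08 over all genes, while R2 against R4 had a median of 0.01. Of 5 epithelial markers 4 were tested and 2 called, both highest in R4.

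Of 5 red blood cell genes 4 were tested and 2 called. The called pair, HBA and HBA1, encodes alpha globin and is uncertain, because near-identical copies can share reads. Its members averaged 21.1 ± 6.36 and 21.2 ± 6.30 CPM in R2, 1.124 and 1.04 CPM in R4, and 0.968 and 0.979 CPM in R5. HBB, the beta globin, was not called, at 0.360 ± 0.401 CPM in R2, 1.33 ± 0.445 in R4 and 1.01 ± 0.556 in R5. ALAS2, which starts heme synthesis in red cell precursors, was not called either, at 0.952 ± 0.949, 0.519 ± 0.134 and 1.22 ± 0.882 CPM. No tested marker gene of the cell type lists was at 0 in all libraries, and 0 were called across the groups. The part of these cell types in the differences of the VEGF genes was not tested.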

How the data were processed

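The authors deposited whole read counts per gene for 12 corpus luteum columns, and none of the deposited values was a fractional expected count. Trim Galore, cutadapt, STAR, featureCounts and DESeq2 are named per the submitters' processing notes; their versions, the build and the annotation were not given in the sources used here. Summed over the 12 libraries, the lowest gene had 36 counts. Columns were mapped to groups by name, and no column was a copy of another of its group (0 of 12 pairs).

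Low genes were removed with filterByExpr, TMM set the scaling, and 1 edgeR quasi-likelihood model of the 4 groups gave the group comparisons. A model with group and R number gave the comparisons of numbers. Tests were two-sided, with Benjamini-Hochberg adjustment over all 18939 genes and a threshold of 0.05. Log2 CPM used a prior count of 1. The scripts were tested on simulated data. The VEGF genes and lists were chosen with earlier results of these data known. Named genes are all 9 VEGF genes, up to 2 genes per list and test by lowest p, and the 3 genes of highest r per VEGF gene at a mean of at least 1 CPM; STAR, CYP11A1, TEK, PDPN and VEGFD were named after their values were seen. Alternatives were DESeq2 and its size factors, no filter on low counts, mitochondrial and ribosomal RNA genes left out, the number as a replicate block, R2 left out, and each library left out. No sequences were used. Tools were edgeR 4.0.16 and DESeq2 1.42.0 in R 4.3.3, and pandas 2.3.3 with matplotlib 3.10.9 in Python 3.11.15.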

Additional observations from a re-analysis of the deposited data

How the results depend on the processing

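Between groups, 0 of the 9 VEGF genes were called under any alternative run. DESeq2 called 1 gene, not a VEGF gene, in the mean of both embryo groups against CM_EE and 1 in the test among the 4 groups. With 1 library left out, edgeR called 0 to 0 genes in every group comparison. Of 1296 group differences of the VEGF genes recomputed under alternatives, 134 changed sign and 0 passed the threshold. Across the numbers, leaving out 1 library gave 3374 to 5141 genes, lowest without the CM_EE_AI library of R5, and 6 to 8 VEGF genes. Of 459 differences between numbers, 17 changed sign, 20 were lost and 3 gained, and these calls concerned PGF and KDR in R2 against R5 and NRP2 in R4 against R5. NRP2 was also lost with DESeq2 size factors, PGF without mitochondrial and ribosomal RNA genes, and KDR was gained with DESeq2; the cause was not tested. DESeq2 size factors moved the median of all genes by 0.11 on the log2 scale in R2 against R5 and by less than 0.1 elsewhere.

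With the number as a replicate block, edgeR called 0 genes in the group comparisons, as without it. Same-numbered libraries correlated at 0.0353 to 0.646 in their deviations from group means, over 0.1 in 13 of 18 pairs. Each of 12 of 12 libraries correlated best with its own number, a hint from the data and not the design. The labels state no pairing, so the main model of the groups has no term for the number. Its intervals and p-values therefore also hold the spread between numbers. For FLT1 in CM_EE against NC, the 95% interval was -1.73 to 2.37 without the block and -0.37 to 0.56 with it. The block narrowed the intervals of the VEGF genes: unadjusted p was under 0.05 in 4 cases, all against CM_EE. By edgeR these were VEGFC for the mean of both embryo groups (-0.43, unadjusted p = 0.0153, adjusted p = 0.710), for CM_EE_AI (-0.42, unadjusted p = 0.0360, adjusted p = 0.992) and for CM_EE_IVF (-0.44, unadjusted p = 0.0305, adjusted p = 0.957), and FLT1 for CM_EE_IVF (-0.47, 95% interval -0.93 to -0.01, unadjusted p = 0.0465, adjusted p = 0.961). The precision of PGF and VEGFB is limited by counts of 12 to 89 and 37 to 67 a library.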

Other observations

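VEGFD, the other known ligand of FLT4, is in the table but was read at only 4 to 57 counts a library. Its level ran from 0.199 CPM in the CM_EE library of R2 to 2.86 CPM in the NC library of R2, with 1.61 ± 1.18 CPM (SD, n = 4) in R2, 1.03 ± 0.511 in R4 and 1.20 ± 0.598 in R5. Neither the groups nor the numbers separated in these values.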
